A study of Rattus norvegicus with 24 samples.

Results

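*Agtr2* (ENSRNOG00000050006) encodes the angiotensin II type 2 receptor, and it was followed here across the left and right carotid bodies (CBs) of normotensive and hypertensive rats. It is 1 of the 32623 genes in the count table. The gene was chosen by its higher counts in the hypertensive strain and by its covariation with the glomus cell granule genes *Chga* and *Chgb*, so both of these are described below without a test. The samples were the left and right CBs of 6 male WKY/NHsd rats (Wistar-Kyoto, normotensive) and 6 male SHR/NHsd rats (spontaneously hypertensive, SH rats). All 12 rats were aged 12 to 14 weeks and received no treatment that the sample labels name. Each CB was dissected whole after perfusion with cold saline and sequenced separately as polyadenylated RNA, giving 24 libraries. Hypertension and every other difference between these inbred strains cannot be told apart in this design.

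Angiotensin II acts through a pair of G protein-coupled receptors. The type 1 receptor carries most of its known pressor, sympathetic and salt-retaining actions, whereas the type 2 receptor is known for actions that often oppose them, including vasodilation and natriuresis. *Agtr2* is X-linked, is abundant in fetal tissues and is restricted to fewer sites in the adult. The CB is an arterial chemoreceptor whose glomus cells store catecholamines and peptides in dense-core granules with the chromogranins, and angiotensin II is known to excite it.

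The libraries held 9198341 to 13655419 counts, with medians of 9643071.5 to 10146342 in the 4 combinations of strain and side. The right CB of SH rat 34 stood apart from the other 23 libraries and is not in the study's own differential expression table. It held 7962 CPM (counts scaled to the size of the library) of *Tg*, the thyroid hormone precursor thyroglobulin, against at most 215.7 CPM in any other library. The 7 glomus genes named here summed to 82.6 CPM in it, against 1006 to 1565 CPM in WKY and 1325 to 2303 CPM in the other SH libraries. Values below are therefore over 23 libraries (12 WKY and 11 SHR), with the 24th given beside them. CPM was scaled with edgeR's TMM method, and values quoted for the right CB of SH rat 34 and for summed lists of marker genes come from a scaling over all 24 libraries.

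The start of *Agtr2* on the X chromosome is shown with that of *Chgb*, one of the genes it was paired with, to let the 2 upstream regions be compared. Sequences are the 250 bases before the gene start in RefSeq GRCr8, on the plus strand, 5′ to 3′. Capitals mark the motifs searched on both strands, which were the TATA-like TATATAA, the TATA box letters TATAAA, the CCAAT box, the GC box letters GGGCGG and the cyclic AMP element letters TGACGTCA. The *Agtr2* window is chrX:116914070-116914319 and the *Chgb* window chr3:140496462-140496711.
Agtr2: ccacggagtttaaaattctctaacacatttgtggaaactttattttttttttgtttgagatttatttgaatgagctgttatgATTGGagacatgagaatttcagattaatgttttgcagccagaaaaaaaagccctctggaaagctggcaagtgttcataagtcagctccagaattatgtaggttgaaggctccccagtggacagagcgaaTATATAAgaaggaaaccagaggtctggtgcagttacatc
Chgb: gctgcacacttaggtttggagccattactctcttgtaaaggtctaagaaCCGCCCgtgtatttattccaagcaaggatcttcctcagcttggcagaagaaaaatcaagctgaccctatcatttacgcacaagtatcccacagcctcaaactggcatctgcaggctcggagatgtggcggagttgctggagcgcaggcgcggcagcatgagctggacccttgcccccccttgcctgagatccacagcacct
The *Agtr2* window held 1 TATATAA, starting 39 bases before the gene start, and 1 CCAAT on the opposite strand, and had a GC content of 38%. The *Chgb* window held 1 GGGCGG on the opposite strand and had a GC content of 53.6%. No motif was found in both windows. Of 33469 rat promoter windows of this length, 3.42% held TATATAA, 34% CCAAT, 30.5% GGGCGG, 12.9% TATAAA and 1.59% TGACGTCA, and 9.81% had a lower GC content than that of *Agtr2*. A match of letters is a description and not evidence that a factor binds there.

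*Agtr2* was expressed in all 23 libraries and its 2 strain ranges did not overlap. The receptor was read 814 to 2612 times in the WKY libraries and 3255 to 5484 times in the SHR libraries. At these depths counting error alone is 3.51% at the lowest count and 1.35% at the highest. In WKY the libraries ran from 89.4 CPM over a median of 193 CPM to 259 CPM. In SHR they ran from 326 CPM over a median of 416.5 CPM to 559 CPM. The lowest SHR library, the right CB of rat 30, was thus above the highest WKY library, the right CB of rat 32.

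**Figure D1:**
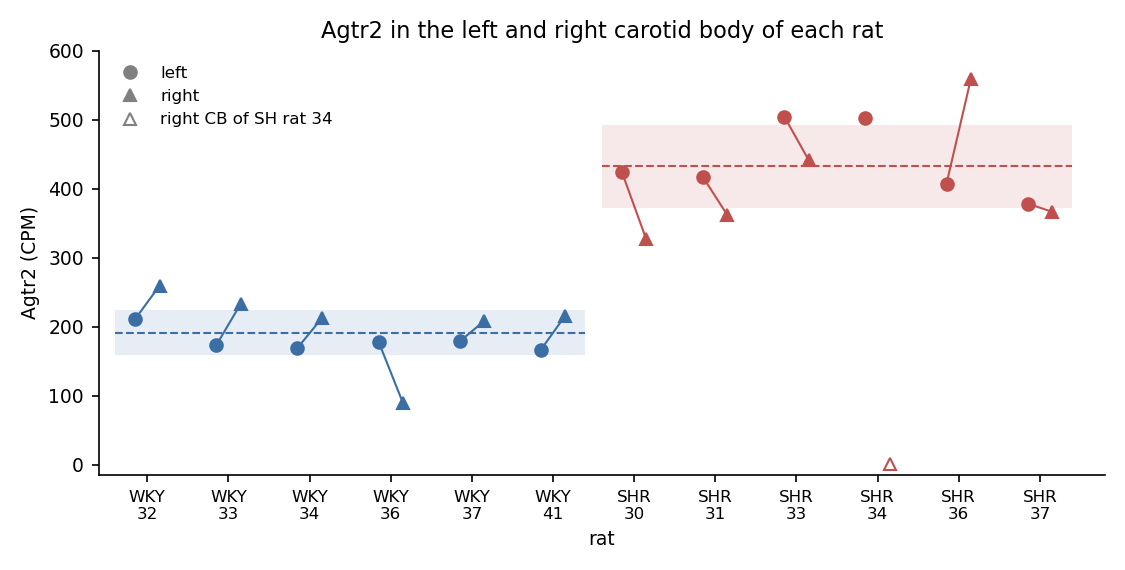
*Agtr2* (CPM, linear axis) in the left (circles) and right (triangles) CB of each rat, WKY in blue and SHR in red, with lines joining the CBs of one rat. Dashed lines and bands are the mean and SD over 6 rats of the rats' mean values, the open triangle near 0 is the right CB of SH rat 34 at 0.251 CPM and enters no mean, and every other SHR point lies above every WKY point.

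With the sides of each rat averaged, *Agtr2* was at 191 ± 32.8 CPM in WKY against 433 ± 60.0 CPM in SHR (SD, n = 6 rats each, SH rat 34 by its left CB alone). The WKY rats ran from 134 CPM in rat 36 to 235 CPM in rat 32, and the SH rats from 372.5 CPM in rat 37 to 503 CPM in rat 34. The fitted log2 fold change of SHR over WKY was 1.16 with an SE of 0.127 (edgeR's quasi-likelihood fit with side as a covariate). Since the strain difference chose the gene, it carries no test here. Across the 14243 genes in that fit, 20% had an adjusted p under 0.05 in either direction (2844 genes) and 10.3% were called higher in SHR (1470 genes). That fit treats the 2 CBs of a rat as separate samples, and with counts summed per rat 2055 genes were called. Of all tested genes, 102 had a larger log2 fold change than *Agtr2*. Fewer cells of a type and less RNA per cell cannot be told apart in bulk tissue, here or for any gene below.

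The order of the levels by strain and side was WKY left, WKY right, SHR right and SHR left. The left CBs of WKY rats averaged 179 ± 16.2 CPM (SD, n = 6), and 5 of the 6 lay between 166.5 and 178.5 CPM while rat 32 was at 211 CPM. The right CBs of WKY rats averaged 203 ± 58.7 CPM (SD, n = 6). The right CBs of SH rats averaged 411 ± 92.9 CPM (SD, n = 5) and the left CBs 439 ± 52.5 CPM (SD, n = 6). Neighbours of the same strain overlapped in this order, whereas WKY right and SHR right did not. Fitted on each side alone, the log2 fold change of SHR over WKY was 1.29 (SE 0.0829) in left CBs and 1.02 (SE 0.239) in right CBs.

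Whether the side of the neck matters for *Agtr2* was asked within rats. In 5 of 6 WKY rats the right CB was the higher one, with left minus right at -0.43 to -0.22 on the log2 scale, and in 4 of 5 SH rats the left one was, at 0.05 to 0.38. The exceptions were WKY rat 36, with 178 CPM on the left and 89.4 CPM on the right, and SH rat 36, with 407 CPM on the left and 559 CPM on the right. Over the 11 rats with both sides, left minus right was -0.03 ± 0.44 on the log2 scale (SD; two-sided exact sign-flip test, p = 0.8555). In WKY alone it was -0.11 ± 0.54 (n = 6, exact sign-flip test, p = 0.6875, where 0.03125 is the smallest possible) and in SHR alone 0.07 ± 0.32 (n = 5, exact sign-flip test, p = 0.6875, smallest possible 0.0625). The difference in this measure between SHR and WKY rats was 0.18 (two-sided exact permutation test over 462 arrangements, p = 0.5455). Adjusted over these 4 tests every p became 0.8555. None of the differences was larger than the spread between rats.

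The fits across all genes gave the same outcome for the receptor. The log2 fold change of left over right was -0.05 (SE 0.126, 95% interval -0.29 to 0.20, adjusted p = 0.983, edgeR). The difference of that change between the strains was 0.27 (SE 0.251, 95% interval -0.22 to 0.76, adjusted p = 1, edgeR). For side, 0% of genes were called (0 of 14243) and 686 had an unadjusted p under 0.05. For the strain difference in side, 0% were called likewise, with 439 at an unadjusted p under 0.05. DESeq2 called 0 genes in either comparison. The strain difference in side depended on single rats. The fitted value was 0.43 without WKY rat 36 (edgeR, adjusted p = 0.999) and 0.43 without SH rat 36 (edgeR, adjusted p = 0.986). The difference of the means over rats was 0.40 without WKY rat 36 (exact permutation test, p = 0.0476) and 0.31 without SH rat 36 (exact permutation test, p = 0.3238). Each of these rats was the one exception of its strain, so leaving it out widens the difference by construction, and neither p was adjusted over the rats that could have been left out.

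*Chga* and *Chgb*, the acidic granule proteins chromogranin A and B, had smaller strain differences than the receptor. *Chga* averaged 603 ± 69.3 CPM in WKY against 778 ± 125 CPM in SHR (SD, n = 6 rats each), with a log2 fold change of 0.36 (SE 0.0922). *Chgb* averaged 538 ± 53.4 CPM in WKY against 727 ± 124 CPM in SHR, with a log2 fold change of 0.40 (SE 0.0870). Unlike the receptor, both genes overlapped between the strains, over rats as over libraries. Non-overlap was not particular to the receptor, since the glomus gene *Ret* did not overlap over rats or libraries either. Among the other named genes the same held for *Enpp2*, *Il18rap*, *Gulo* and LOC103690108. It also held for *Prph*, listed for sympathetic neurons, and *Casq1*, listed for skeletal muscle. *Dbh* and *Cartpt* did not overlap over rats but did over libraries, while *Gata3* and *Eef1a2* overlapped over both. The share of all genes without overlap was not computed, so how unusual non-overlap is cannot be said.

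The ratio of *Agtr2* to each granule gene within a library therefore also differed between the strains. Per unit of *Chga* CPM, *Agtr2* CPM was 0.320 ± 0.0633 in WKY rats, from 0.238 to 0.404, and 0.570 ± 0.0797 in SH rats, from 0.428 to 0.647 (SD, n = 6 each). Per unit of *Chgb* it was 0.359 ± 0.0773 in WKY rats, from 0.245 to 0.468, and 0.611 ± 0.0775 in SH rats, from 0.4998 to 0.719. In neither ratio did the rats of the strains overlap, although single libraries did. With the mean of the log2 CPM of *Chga* and *Chgb* added to the model as a covariate, the *Agtr2* log2 fold change was 1.02 (SE 0.162). It was 1.16 without that covariate, a description on the same values that chose the gene. These ratios compare one gene pair between libraries and say nothing of which transcript is the more abundant, since counts were not set per length.

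**Figure D2:**
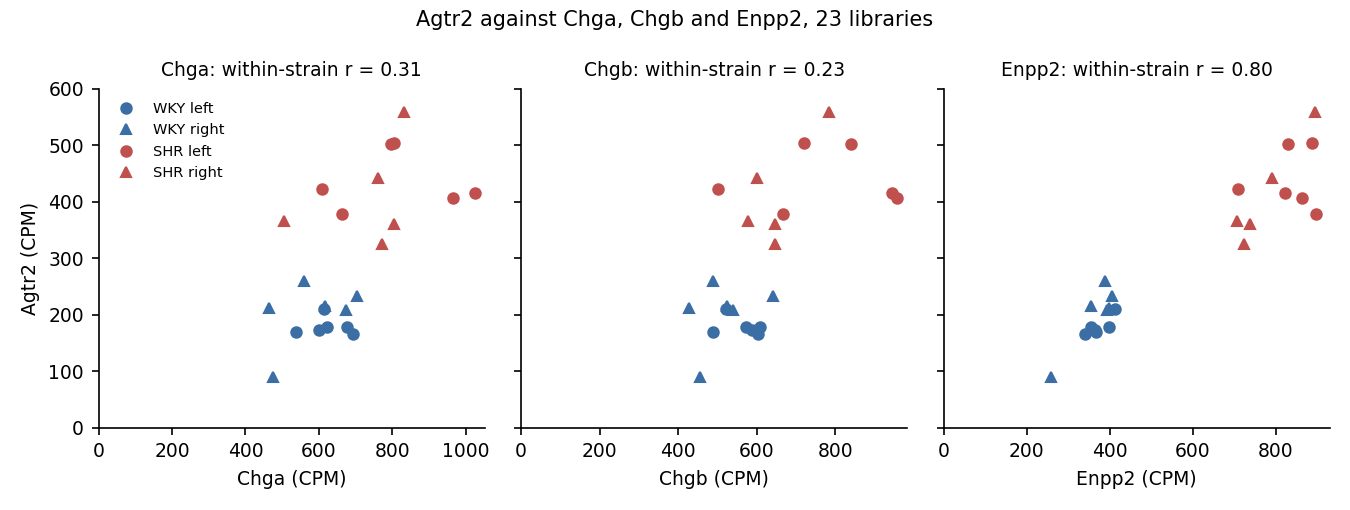
*Agtr2* against *Chga*, *Chgb* and *Enpp2* (all CPM, linear axes) in 23 libraries, WKY in blue and SHR in red, left CBs as circles and right CBs as triangles. The strains form separate clusters in each panel, and within them *Agtr2* tracked *Enpp2* (r = 0.80) more closely than *Chga* (r = 0.31) or *Chgb* (r = 0.23).

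Within the strains, *Agtr2* covaried only weakly with the granule genes. On log2 CPM with each strain's mean removed, Pearson's r over the 23 libraries was 0.31 with *Chga* (Spearman's rho 0.23) and 0.23 with *Chgb* (rho 0.23). *Chga* and *Chgb* followed each other at r = 0.84 over the same libraries (rho 0.86). These points share rats, with 2 libraries from each of 11, and share the scaling, and no p is given. In the 12 WKY libraries r was 0.38 with *Chga* and 0.20 with *Chgb*, and in the 11 SHR libraries it was 0.27 and 0.33. Of the 10499 other genes with a mean of at least 10 CPM, 17.3% had a higher r with *Agtr2* than *Chga* had, and 24.4% a higher one than *Chgb*. The median r over all of them was 0.01.

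A single library carried a large share of that weak relation. Without the right CB of WKY rat 36, r fell to 0.12 with *Chga* and 0.11 with *Chgb* (n = 22), a value computed after the data were seen. Without the 2 libraries farthest from the median of *Agtr2* (the right CBs of WKY rats 36 and 32), it was 0.19 with *Chga* and 0.19 with *Chgb* (n = 21). Rat means gave r = 0.34 with *Chga* and 0.03 with *Chgb* over 6 WKY rats, which became 0.42 and 0.73 without the 2 rats farthest in *Agtr2*. Over 6 SH rats they gave 0.53 (rho 0.54) and 0.68 (rho 0.89), which became 0.52 and 0.40 without their 2 farthest. Left minus right within the 11 rats gave r = 0.21 with both genes.

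With the right CB of SH rat 34 added, the same correlations became 0.96 with *Chga* and 0.98 with *Chgb* (n = 24). In that library *Agtr2* had 2 counts, or 0.251 CPM, against 4482 counts in the left CB of the same rat. The ratio of left to right was 1966, with a 95% interval from counting alone of 544 to 16240. *Chgb* fell short by a ratio of 212 (149 to 312) and *Chga* by 14.2 (13.0 to 15.7). *Agtr2* thus kept 0.0509% of its level on the left, *Chgb* 0.472% and *Chga* 7.02%. The ratio of *Agtr2* to *Chga* was 0.00458 in this right CB, and 0.407 or higher in the other SHR libraries.

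**Figure D3:**
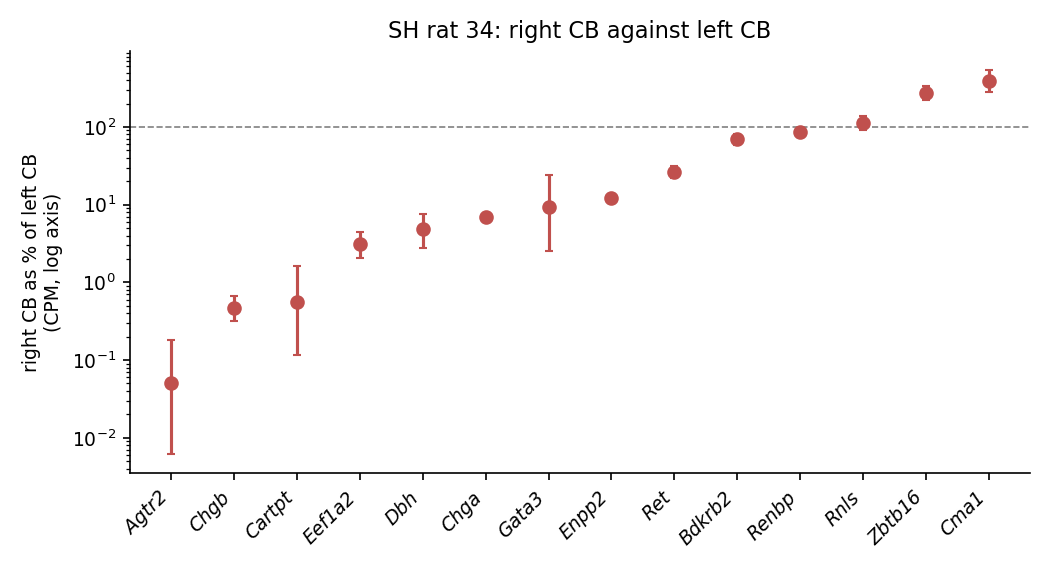
Level (CPM) in the right CB as a percent of the left CB of SH rat 34 (log axis) for the 6 named angiotensin axis genes, the 7 named glomus genes and *Enpp2*. Bars are 95% intervals from the counts of the right CB alone and the dashed line marks equal levels. *Agtr2* lies lowest at 0.0509%, while *Renbp* is at 85.6% and *Rnls* at 113%.

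Genes that rose and fell with *Agtr2* inside a strain were ranked by the same r. Among genes with a symbol, *Enpp2*, which encodes the lysophosphatidic acid-producing enzyme autotaxin, came first at r = 0.80 (0.89 in WKY, 0.61 in SHR). Only 1 gene ranked above it, ENSRNOG00000006810 at r = 0.82, which has no symbol here. *Cd24*, a small glycosylated surface protein, followed at 0.65, *Il18rap*, the accessory subunit of the interleukin-18 receptor, at 0.65, *Unc5c*, a netrin receptor, at 0.64, and *Gulo*, the last enzyme of ascorbate synthesis, at 0.64. They were followed by *Tmem35a*, a chaperone of nicotinic receptors, at 0.62, *Npy1r*, the neuropeptide Y receptor Y1, at 0.61, *Tnr*, the matrix protein tenascin-R, at 0.60, and *Maco1* at 0.58. Between 1 gene without a symbol (for *Enpp2*) and 145 of them (for *Maco1*) ranked higher.

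The likeness to *Enpp2* weakened without the library lowest in *Agtr2*, as did that to each of the other genes named as highest. In the right CB of WKY rat 36 *Enpp2* was at 259.6 CPM, where *Agtr2* was lowest too, and at 340 to 412 CPM in the other WKY libraries. It was at 705 to 897.5 CPM in SHR and at 370 ± 26.5 CPM in WKY against 807 ± 56.2 CPM in SHR over rats (SD, n = 6 each). Without that library r was 0.59 for *Enpp2*, 0.53 for *Maco1*, 0.52 for *Unc5c*, 0.51 for *Cd24*, 0.41 for *Tmem35a*, 0.39 for *Npy1r*, 0.35 for *Gulo*, 0.32 for *Il18rap* and 0.30 for *Tnr*. These 9 stayed positive, and *Enpp2* stayed the highest of them. They were picked for a high r with that library included, and no rank over all genes is given without it.

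**Figure D4:**
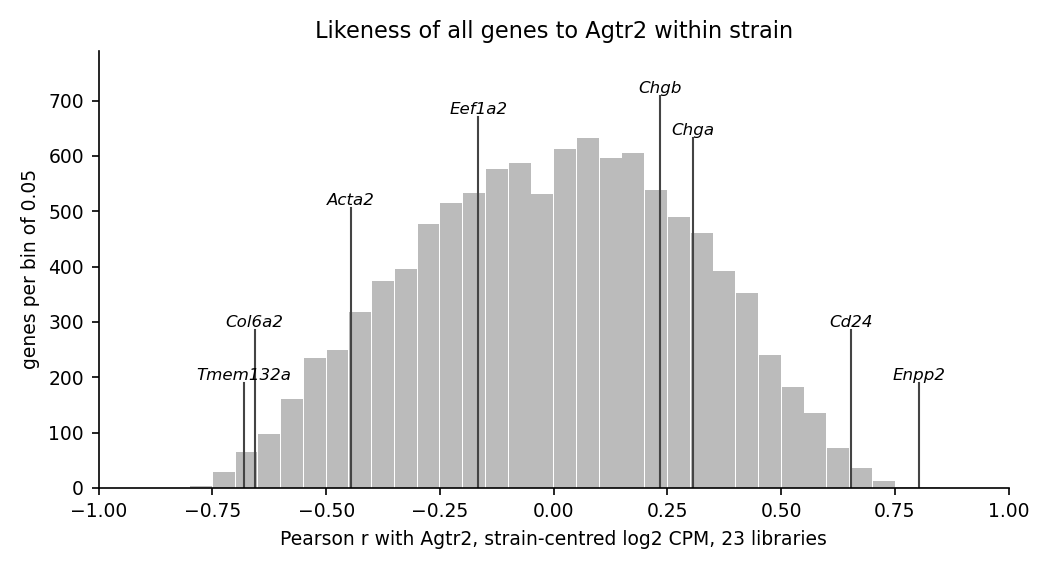
Number of genes (bins of 0.05) by Pearson's r with *Agtr2* on strain-centred log2 CPM over 23 libraries, for 10499 genes with a mean of at least 10 CPM. Vertical lines mark named genes: *Enpp2* lies at the far right at 0.80, *Chga* (0.31) and *Chgb* (0.23) lie within the bulk, and *Tmem132a* (-0.68) and *Col6a2* (-0.66) at the left.

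At the other end stood genes that were low where *Agtr2* was high. The 5 lowest with a symbol were *Tmem132a* at r = -0.68, *Kifc3*, a minus-end kinesin, at -0.66, *Col6a2*, a collagen VI chain, at -0.66, LOC103690108 at -0.63 and *Mmp23*, a membrane-bound metalloproteinase, at -0.63. All 5 had a negative r in each strain. The named smooth muscle genes leaned the same way, with r of -0.45 for *Acta2* (-0.71 in SHR, -0.32 in WKY), -0.35 for *Tpm2* and -0.29 for *Tagln*. So did the fibroblast gene *Prelp*, at -0.50, and the endothelial receptor *Acvrl1*, at -0.36. Over all genes, 440 of 10499 had an r above 0.5 and 588 one below -0.5. Only 636 of the 10499 genes had a symbol, each taken from the part of the study's table with genes higher in SHR. This ranking by name thus leaves out most genes, among them all those lower in SHR. *Tmem132a*, the lowest with a symbol, ranked 10449 of 10499, and the lowest r of all was -0.76, for ENSRNOG00000003050.

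By list, the 6 glomus genes with enough counts had a median r of 0.21, from -0.17 for *Eef1a2*, a translation elongation factor of excitable cells, to 0.31 for *Chga*. *Cartpt*, a neuropeptide precursor, was at 0.28, *Ret*, the receptor tyrosine kinase for glial-derived factors, at 0.20, and *Dbh*, which makes noradrenaline, at 0.08. The median was -0.24 over 4 endothelial, -0.35 over 3 smooth muscle, -0.28 over 3 fibroblast, -0.10 over 4 macrophage, 0.09 over 4 sympathetic neuron, -0.08 over 2 adipocyte and 0.30 over 2 skeletal muscle genes. The thyroid gene *Tg* was at -0.21.

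Of 32 genes considered for the angiotensin axis, 6 could be matched to a symbol. The genes of the type 1 receptors, angiotensinogen and *Ace* are not analysed here. The list was wide and held an amino sugar epimerase (*Renbp*), renalase (*Rnls*) and the bradykinin B2 receptor (*Bdkrb2*). A count over it is therefore one of listed genes and not a result about angiotensin signalling. Of the 5 beside *Agtr2*, 4 had an adjusted p under 0.05 and a higher level in SHR (edgeR's quasi-likelihood test), 0 a lower one and 1 did not pass. Symbols came only from genes the study lists as higher in SHR on these same samples, so this direction is not independent evidence. Of all 1273 genes with a symbol, 820 (64.4%) were called higher, and over all genes tested 10.3% were. The median log2 fold change of the 5 was 0.39, against 0.41 over the genes with a symbol and 0.01 over all genes tested.

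*Renbp*, an epimerase of amino sugars, rose from 26.5 ± 2.35 CPM in WKY rats to 33.2 ± 3.29 CPM in SH rats (SD, n = 6 each). Its log2 fold change was 0.33 (adjusted p = 0.00407 over 23 libraries and 0.0082 with counts summed per rat, edgeR). *Rnls*, which encodes renalase, rose from 7.89 ± 1.04 to 10.4 ± 1.15 CPM (0.39, adjusted p = 0.0111 and 0.0308 likewise, edgeR). The fit over libraries treats the 2 CBs of a rat as separate samples. *Bdkrb2*, the bradykinin B2 receptor, was at 19.6 ± 1.42 CPM in WKY against 24.7 ± 4.70 CPM in SHR and did not pass the test (0.32, adjusted p = 0.0591, edgeR).

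*Cma1*, the mast cell chymase that can form angiotensin II, rose from 0.606 ± 0.381 to 2.49 ± 0.771 CPM (log2 fold change 2.07, SE 0.3665, adjusted p = 0.000126, edgeR). With counts summed per rat its adjusted p was 0.000975 (edgeR). It rested on 0 to 15 counts per library in WKY and 11 to 58 in SHR. The mast cell genes *Cpa3* and *Mcpt1l1* were higher in SHR too, and the 3 mast cell genes summed to 1.41 to 3.67 CPM in WKY and 3.63 to 24.6 CPM in SHR. The part of mast cell number in the *Cma1* value was not tested. *Zbtb16*, a transcription factor (PLZF) known to bind the type 2 receptor, was at 3.90 ± 2.28 CPM in WKY against 11.7 ± 16.6 CPM in SHR (1.65, SE 0.541, adjusted p = 0.0353, edgeR). SH rat 33 set that value, at 39.0 CPM on the left and 51.7 CPM on the right, and without it the log2 fold change was 0.35 (adjusted p = 0.434, edgeR). With the counts of each rat's CBs summed it was 1.60 and did not pass (adjusted p = 0.1999, edgeR), and it lost its call in 8 of 17 alternative fits. In the same rat *Agtr2* was at 505 and 442 CPM, inside the range of the other SH rats.

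**Figure D5:**
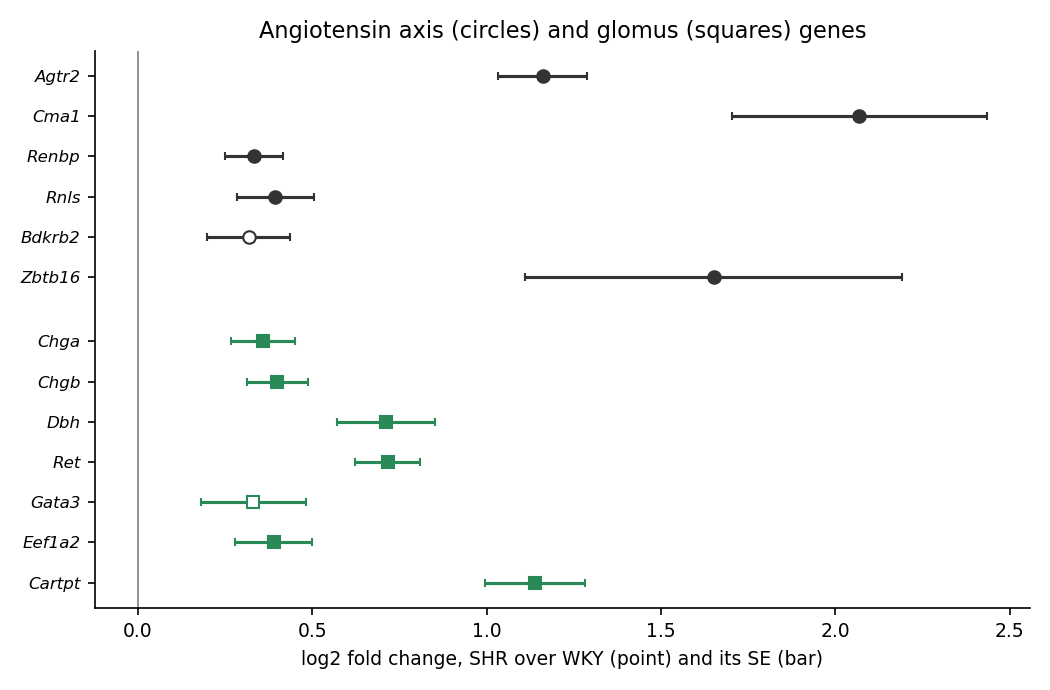
Log2 fold change of SHR over WKY with its SE (bars) for the 6 named angiotensin axis genes (circles) and the 7 named glomus genes (squares). Open symbols did not reach an adjusted p under 0.05. *Agtr2* was chosen on this difference, so its filled symbol is not a test result. *Agtr2* lies at 1.16, above *Chga* (0.36) and *Chgb* (0.40), and near the glomus gene *Cartpt* (1.14).

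Among the 7 named glomus genes of 23 considered, 6 passed the test and were higher in SHR and 0 lower, with a median log2 fold change of 0.40, beside the 64.4% called among all genes with a symbol. *Cartpt* was at 1.14 (SE 0.1435), *Ret* at 0.72 (SE 0.0925) and *Dbh* at 0.71 (SE 0.140). *Gata3*, a transcription factor of this lineage, did not pass (0.33, SE 0.151). The fold changes differed from gene to gene, and that of *Agtr2* lay next to that of *Cartpt*. Their part in the *Agtr2* difference was not tested.

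For other cell types, too, only genes that the study lists as higher in SHR could be named, of which 64.4% were called over all 1273. Those called higher were 3 of 4 endothelial, 1 of 6 smooth muscle, 4 of 4 sympathetic neuron, 2 of 5 fibroblast, 6 of 6 macrophage, 3 of 3 mast cell, 2 of 4 adipocyte, 3 of 3 skeletal muscle, 1 of 1 thyroid and 0 of 1 sustentacular genes, and 0 were called lower. The 4 sympathetic neuron genes summed to 225 to 338 CPM in WKY and 376 to 505 CPM in SHR, with no overlap. In the right CB of WKY rat 36, where *Agtr2* was lowest, the sympathetic neuron genes summed to 246 CPM. The glomus genes summed to 1101 CPM in that library and *Tg* was at 0.652 CPM. These sums and *Tg* lay inside the range of the other WKY libraries. The glomus sum was near the low end of that range (1006 to 1565 CPM), and was 1445 CPM in the left CB of the same rat. *Pmp2*, a myelin lipid-binding protein listed for sustentacular glia, was at 9.56 CPM in the right CB, the highest of the WKY libraries. The mast cell genes summed to 1.41 CPM in it, the lowest. The part of these genes in the *Agtr2* values was not tested.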

How the data were processed

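Polyadenylated RNA of 24 carotid bodies was prepared by the authors with a stranded mRNA kit. Per the labels, reads went through FastQC, STAR, featureCounts and DESeq2, and the unnormalized counts of each Ensembl gene were deposited by the authors. The genome build, the annotation, the strand setting and all versions are not given in the sources used here. All columns matched a sample label. Symbols (1273 identifiers) came from the part of the study's table read here, which holds genes higher in SHR. Genes, lists and tests were chosen with earlier results of these data known.

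Counts were fitted in R 4.3.3 with edgeR 4.0.16 (TMM, robust quasi-likelihood, Benjamini-Hochberg at 0.05) on the 14243 genes whose normalized counts averaged above 10, with side or strain as covariate. Apart from the fits named as blocked or summed per rat, the fits held no term for the rat. DESeq2 1.42.0 was an alternative. CPM entered logs with 0.5 added, and the sides of a rat were averaged. By rule, genes among the 10 highest and 5 lowest r with *Agtr2*, and members of 12 gene lists, were named. Some of these genes are not reported here and were left out of the counts of the lists. The fit was tested on simulated data. Any of the 276 pairs of libraries differed by a chi-square of at least 4.97 per degree of freedom, above sampling noise.

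Left and right CBs with one number come from one rat. Over 11 such pairs their deviations correlated at -0.0352 to 0.286 (median 0.115). The 4 rat numbers that occur in both strains name different animals (-0.242 to 0.0584). Intervals from counts cover counting error only.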

Additional observations from a re-analysis of the deposited data

Results flagged for a closer look

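Of 44 sets of 5 or 6 values checked, each a gene or ratio on one side in one strain, 8 held a library far from the rest of its group. The cut-off passes about 1 in 20 sets of independent, normally distributed values. These sets share libraries and genes, and *Enpp2* was named for its r with *Agtr2*, so that rate is no measure of the 8. *Agtr2* was at 211 CPM in the left CB of WKY rat 32, against 166.5 to 178.5 CPM in the other left WKY CBs. It was at 89.4 CPM in the right CB of WKY rat 36, against 208 to 259 CPM in the other right WKY CBs, and *Enpp2* stood apart in that library too, at 259.6 CPM against 354.5 to 406 CPM. In SH rat 37 the right CB held 506 CPM of *Chga*, where those of the other SH rats held 761.5 to 831 CPM. *Cma1* was at 1.27 CPM in the right CB of WKY rat 33, against 0.0993 to 0.517 CPM, and *Bdkrb2* at 15.6 CPM in the left CB of SH rat 36, against 24.5 to 28.1 CPM. *Zbtb16* stood apart on both sides of SH rat 33, at 39.0 CPM on the left against 2.14 to 8.15 CPM, and at 51.7 CPM on the right against 2.81 to 8.74 CPM.

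The right CB of SH rat 34, which enters none of the main comparisons, held 7962 CPM of *Tg*, against 0.0962 to 215.7 CPM in the other libraries. No cause of these values was tested.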

How the results depend on the processing

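The *Agtr2* log2 fold change of SHR over WKY kept its sign in all 21 alternative fits, at 1.08 to 1.23 without one rat and 1.02 to 1.35 in the others. With the 4 shared rat numbers as a replicate block it was 1.35, but these numbers name different animals and that fit leaves out the other rats. Over all 24 libraries it was 1.02 with an SE of 0.399. Left against right stayed uncalled throughout. It turned to 0.0857 over all 24 libraries and to 0.00552 without SH rat 36, and ran from -0.11 to 0.00552 without one rat. With the rat as a replicate block it was -0.03, and the strain difference in side was 0.20. The block changed no call. The means over rats ran from -0.13 to 0.0164 without one rat, and the strain difference in them from 0.11 to 0.40. Its exact p fell under 0.05 only without WKY rat 36 (0.0476). The correlations with *Chga* and *Chgb* moved by more than their SE only over all 24 libraries (0.96 and 0.98). This SE came from leaving out each rat in turn (jackknife) and was wide, at 0.208 and 0.140. The fall to 0.12 and 0.11 without the right CB of WKY rat 36 lay within it. Without one rat the correlations ran from 0.13 to 0.37 and 0.14 to 0.31. Of the 5 genes beside *Agtr2* on the wide angiotensin axis list, 4 were called in the fit reported, and some calls changed over 17 alternatives. *Cma1*, *Renbp* and *Rnls* kept their calls in all 17. *Zbtb16* lost its call in 8, including the fit with counts summed per rat, and *Bdkrb2* was called in 3. The cause of these changes was not tested. *Agtr2* was chosen on this difference and is left out of these calls. *Cma1* rests on 0 to 15 counts per library in WKY.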

Other observations

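In the right CB of SH rat 34 the ratio of *Chga* to *Chgb* was 14.1 CPM per CPM, against 0.878 to 1.27 in the 23 other libraries. *Hmx2* and *Hmx3*, neighbouring homeobox genes of the inner ear and nervous system, had 0 counts in it, which allows up to 3. In the left CB of the same rat they had 369 and 344 counts. *Enpp2* was at 12.3% of its level in the left CB there, against 0.0509% for *Agtr2*.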
